A study of Mus musculus with 36 samples.

Results

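The 7 genes examined here encode proteins of the myelin sheath of oligodendrocytes: Mbp, Mog, Mag, Mobp, Cnp, Mal and Cldn11. They were chosen by name, found through the RefSeq accession of each transcript entry, and each gene's entries were summed, which joined 24 entries into 7 of the 24737 genes listed for the olfactory bulb (OB). Expression was measured by RNA-seq of total RNA depleted of ribosomal RNA, in the main olfactory epithelium (MOE), the vomeronasal organ (VNO) and the OB. Each tissue gave 12 libraries, 3 in each of 4 groups: females (SF) and males (SM) of the sex-separated housing, and females (CF) and males (CM) of the sex-combined housing. All mice were C57BL/6, were weaned at 3 weeks, were kept at 4 per cage with their own sex only or with both sexes, and were 6 months old at dissection, so that strain, age and cage density were shared by all groups. By the study, sex-separated cages stood in rooms with mice of the same sex only, and pups were born in sex-combined cages and removed soon after birth. Housing therefore cannot be told apart from room, mating and pregnancy. The index sequences that the study lists for its libraries also differ between the housings in every tissue, so that housing and index cannot be told apart either. A library is a pool of mice and not a single mouse (2 mice per pool by the sample labels, another number by the study's methods), and p-values within a tissue measure the spread between these pools. By the study, MOE, VNO and OB were all taken from each mouse, so that libraries of different tissues share animals.

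Oligodendrocytes wrap axons of the central nervous system in compacted membrane. In the olfactory system the axons of sensory neurons stay unmyelinated and are bundled by ensheathing glia until they reach the bulb, whereas the axons of the bulb's output neurons and the deep layers of the bulb hold myelin made by oligodendrocytes. Myelin basic protein (Mbp) holds the cytoplasmic faces of the membrane together, and Mobp is another small basic protein of compact myelin. Mog sits on the outer surface of the sheath, Mag faces the axon, Cnp is a phosphodiesterase of the non-compacted cytoplasm, Mal is a membrane-raft proteolipid, and Cldn11 forms the tight junctions between the turns of the sheath. Cnp, Mag and Mbp are also made by the Schwann cells of peripheral nerves, Mal and claudins are used by epithelia, and an upstream start of Mbp gives the Golli transcripts, which are also made by neurons and immune cells.

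An effective depth of 3016524 to 6779893 fragments per library was estimated from the confidence limits that accompany each FPKM value (fragments per length of transcript and per number of mapped fragments) and summed over all entries. It lies well below the aligned pairs that the study lists for each library, ranks the libraries differently, and covers counting error only. The third CM library of MOE had the lowest effective depth of the 36, though not the fewest aligned pairs, and had the lowest MOE level of Mbp, Cnp, Mal and Cldn11. In the study's alignment statistics it also had the lowest share of reads aligned, the lowest share of concordant pairs and the shortest mean insert of the 36. The study's RNA integrity values differed by tissue, lowest in VNO and highest in OB. Within VNO and within OB they ranged lower in sex-combined than in sex-separated libraries, with overlap. The tissue labels were checked against a few markers, and Gad1 was not among those set for this check. In OB the neuronal genes Gad1 and Th averaged 180 and 44.1 FPKM, and in MOE they averaged 0.236 and 0.131 FPKM. Omp, the marker of mature sensory neurons, averaged 983 FPKM in MOE, 101 FPKM in VNO and 35.1 FPKM in the bulb, and Trpc2, the vomeronasal channel, averaged 43.0 FPKM in VNO. In the tissue comparison below, all 12 bulb neuron genes were higher in OB than in MOE (38.3% of all genes tested). Against VNO, 11 were higher (45.8% of all genes) and 1, Calb2, was lower. Of 8 chemosensory neuron genes, 5 were lower and 3 higher in OB than in either sensory tissue.

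All 7 genes were above 0 in each of the 12 OB libraries, with Mbp far above the others. Mbp had a lowest level of 122 FPKM, a median of 153 FPKM and a highest level of 166 FPKM. Cnp followed with 27.2, 31.9 and 34.1 FPKM in the same order, and Mal with 21.2, 25.3 and 31.4 FPKM. Cldn11 lay between 17.2 and 24.05 FPKM and Mobp between 16.7 and 21.9 FPKM, with medians of 20.4 and 19.4 FPKM. Mag lay between 12.3 and 17.7 FPKM with a median of 14.6 FPKM, and Mog was lowest, between 2.79 and 3.93 FPKM with a median of 3.17 FPKM. The ranges of Mbp and of Mog met no other range, while the ranges of Cnp, Mal, Cldn11 and Mobp each overlapped that of the next gene in this order, down to Mag. At least 73.1 estimated fragments stood behind every OB value of the 7 genes. Mbp made up 56.8% ± 1.56 (SD, n = 12) of their summed FPKM.

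In the 2 sensory tissues the same genes were ordered differently. In MOE, Mal (9.07 to 18.5 FPKM, median 15.8) and Cldn11 (8.46 to 18.9 FPKM, median 15.7) were highest and overlapped each other. Cnp lay between 2.36 and 5.37 FPKM (median 4.38), and Mbp between 2.03 and 4.29 FPKM (median 3.81), which overlapped Cnp. Mag lay between 0.433 and 1.03 FPKM (median 0.719). The compact myelin protein Mobp was listed at 0 in 9 of 12 MOE libraries and rested on at most 2.80 estimated fragments in the others, and Mog was listed at 0 in all 12.

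In VNO, Mal (9.44 to 14.9 FPKM, median 10.6), Cnp (8.65 to 11.3 FPKM, median 10.1) and Cldn11 (6.78 to 10.9 FPKM, median 8.41) overlapped one another. Mbp was lower, between 3.77 and 5.98 FPKM (median 4.93), without touching the range of Cldn11. Mag lay between 0.280 and 0.652 FPKM (median 0.393). Mobp was listed at 0 in 9 of 12 VNO libraries, and Mog reached at most 0.131 FPKM on 3.996 estimated fragments. Mbp made up 8.91% ± 0.944 of the summed FPKM of the 7 genes in MOE and 13.9% ± 1.68 in VNO (SD, n = 12 each), whereas Mal and Cldn11 together made up most of it in MOE, with 39.4% ± 2.16 and 38.5% ± 1.66.

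**Figure D1:**
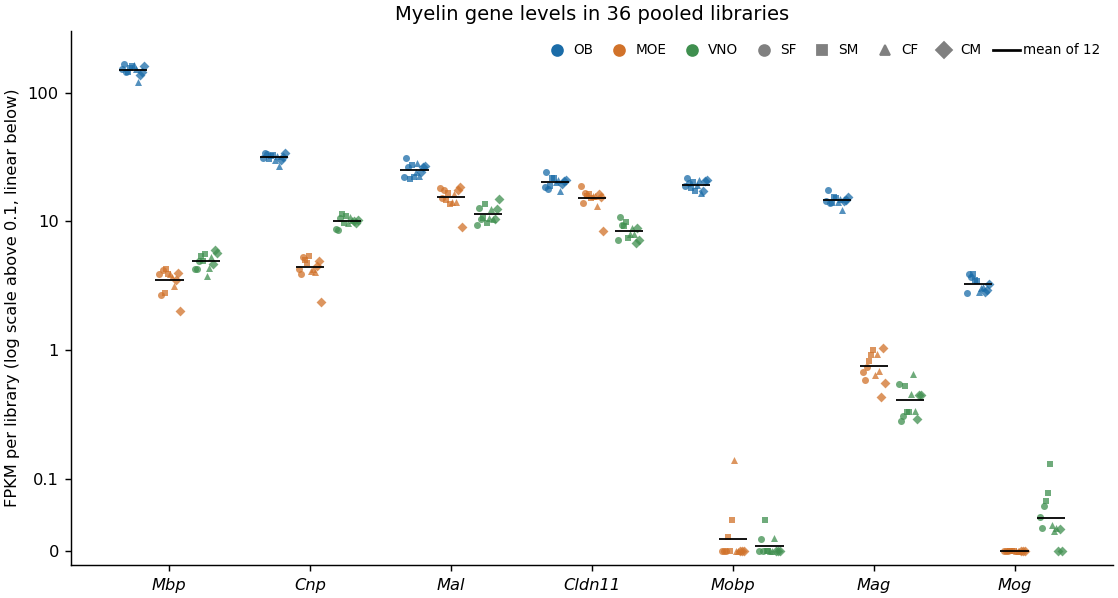
FPKM of the 7 myelin genes in each of the 36 libraries (one point each, colour for tissue, shape for group) with the mean of 12 libraries as a bar, on a vertical axis that is logarithmic above 0.1 FPKM and linear below. Mobp and Mog sit at or near 0 outside OB, while Mal and Cldn11 lie within 1 order of magnitude in all tissues.

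Tissues were compared with limma on log2(FPKM + 0.5) over 16027 genes whose mean was at least 0.5 FPKM in some tissue, with Benjamini-Hochberg adjustment across the whole set. Each FPKM is relative to the mapped fragments of its own library, and in bulk tissue fewer cells of a type and less RNA per cell cannot be told apart. All 7 genes were higher in OB than in MOE, among 38.3% of all genes tested that were called higher in OB. The median log2 difference of the 7 genes was 2.91, which is the value of Mog, and over all genes tested it was -0.09. Mog was listed at 0 in MOE, and its value ran from 2.09 to 5.07 over the alternatives. In 3 of the 7, Mobp, Mbp and Mag, the log2 difference was at least 3, which 3.75% of all genes tested reached. Mbp differed by 5.26 ± 0.09 (log2, SE; adjusted p = 4.86e-30), a 43.0-fold higher mean FPKM. Mag differed by 3.61 ± 0.07 (adjusted p = 1.31e-27, 19.5-fold) and Cnp by 2.73 ± 0.07 (adjusted p = 8.77e-25, 7.17-fold). The differences of Mal, 0.70 ± 0.09 (adjusted p = 5.18e-08, 1.63-fold), and of Cldn11, 0.42 ± 0.09 (adjusted p = 6.46e-05, 1.33-fold), were far smaller. For Cldn11 the ranges of OB and MOE overlapped, and for Mal they did not. The fitted differences of Mobp (5.26) and Mog (2.91) were set by the pseudocount, because both genes were at or near 0 in MOE, and no fold is given for them.

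All 7 genes were also higher in OB than in VNO, where 45.8% of all genes tested were called higher in OB. The OB libraries are the same ones, so that the 2 comparisons are not independent. The median log2 difference was 2.79, again the value of Mog, against 0.07 over all genes tested. Over the alternatives Mog ran from 2.03 to 4.56. The same Mobp, Mbp and Mag passed a log2 difference of 3, as 3.58% of all genes did. Mbp differed by 4.80 ± 0.09 (adjusted p = 4.82e-29, 30.5-fold) and Mag by 4.06 ± 0.07 (adjusted p = 6.47e-29, 35.6-fold). Cnp differed by 1.60 ± 0.07 (adjusted p = 7.64e-19, 3.14-fold), Cldn11 by 1.21 ± 0.09 (adjusted p = 8.79e-14, 2.38-fold) and Mal by 1.10 ± 0.09 (adjusted p = 3.91e-12, 2.196-fold). None of these 5 genes had overlapping OB and VNO ranges. Mobp (fitted at 5.29) and Mog (fitted at 2.79) were again near 0 in VNO.

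Between the sensory tissues the 7 genes did not move one way. Higher in VNO than in MOE were 3 of 7 (34.6% of all genes tested), and lower were 3 of 7 (48.0%). Cnp was 2.29-fold higher in VNO (log2 1.13 ± 0.07, adjusted p = 1.04e-14) and its ranges did not overlap, and Mbp was 1.41-fold higher (0.45 ± 0.09, adjusted p = 2.37e-05). Mog was called higher at 0.12 ± 0.04 (adjusted p = 0.00873) on a few fragments per library, and this call was lost with a pseudocount of 1 (adjusted p = 0.0773). Cldn11 was lower in VNO by -0.79 ± 0.09 (adjusted p = 1.59e-09), Mag by -0.45 ± 0.07 (adjusted p = 2.25e-06) and Mal by -0.40 ± 0.09 (adjusted p = 0.000261). The difference of Mal was -0.03 after quantile normalization (adjusted p = 0.558), and the median difference over all genes was -0.13. The call for Mag was lost when only the leading entry of each gene was used (-0.22, adjusted p = 0.556). Mobp was not called (-0.03 ± 0.05, adjusted p = 0.611).

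**Figure D2:**
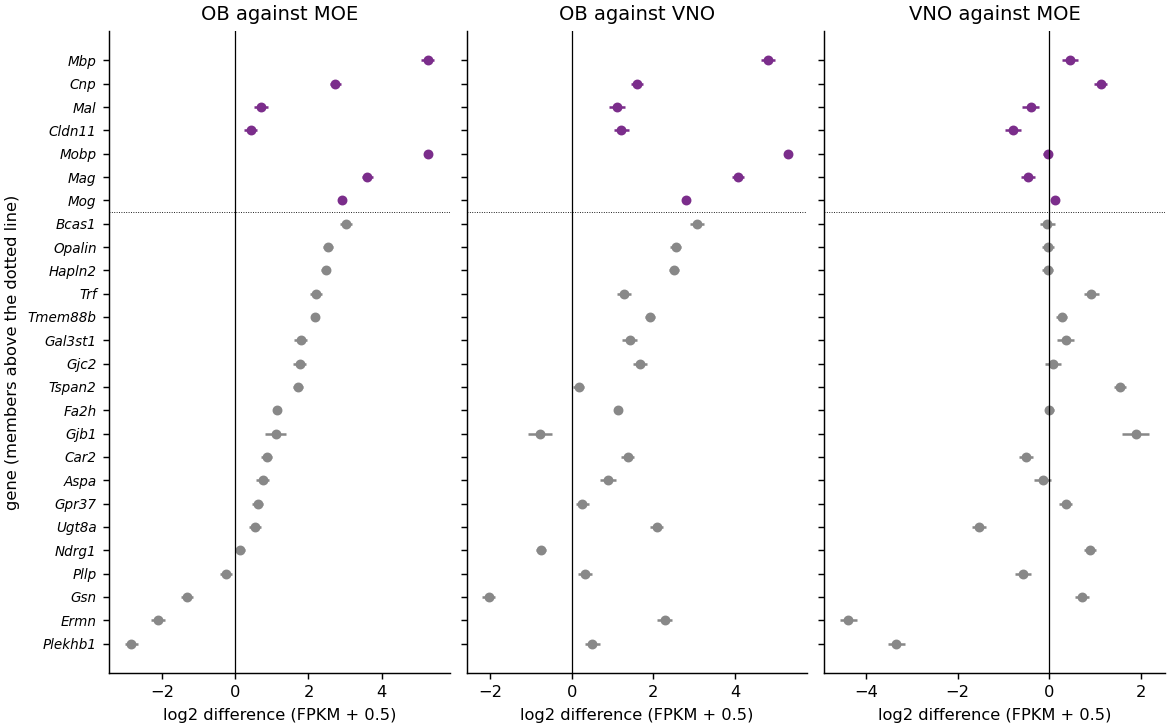
Log2 differences on the FPKM + 0.5 scale (points) with 95% intervals (lines) for the 7 members above the dotted line and 19 of the 20 other mature oligodendrocyte and myelin genes below it, in the 3 tissue comparisons. The members spread from 0.42 to 5.26 in OB against MOE, and from -0.79 to 1.13 in VNO against MOE.

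Other genes of the oligodendrocyte lineage were taken from lists that were written with earlier results of these data known. Of 20 other mature oligodendrocyte and myelin genes, 16 were higher and 4 lower in OB than in MOE (median log2 difference 1.12), and 17 were higher and 3 lower in OB than in VNO (median 1.32). Of all genes tested, 38.3% were called higher in OB than in MOE and 45.8% higher than in VNO. In VNO against MOE, 34.6% were called higher and 48.0% lower. These shares also stand beside the counts of the lists that follow. The summed FPKM of the 20 was not highest in OB, with 283 to 371 there, 289 to 535 in MOE and 213 to 260 in VNO. The lowest of the list were Plekhb1 against MOE (-2.84 ± 0.09, adjusted p = 6.29e-23) and Gsn, an actin-severing protein, against VNO (-2.04 ± 0.08, adjusted p = 6.48e-21). Between VNO and MOE, 8 of the 20 were higher and 6 lower in VNO, from Gjb1, a gap junction protein, at 1.89 ± 0.14 (adjusted p = 4.49e-13) to Ermn, a cytoskeletal protein of oligodendrocytes, at -4.39 ± 0.09 (adjusted p = 7.85e-27). Opalin and Hapln2, which lie with Mobp near 0 outside OB, averaged 2.46 and 2.37 FPKM in OB and at most 0.012 FPKM in MOE or VNO.

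Of 10 lineage transcription factors, 6 reached the level for testing. OB exceeded MOE in 4 and was lower in 1, and OB exceeded VNO in 4 and was lower in 1. Sox8 was highest against MOE (2.44 ± 0.04, adjusted p = 4.47e-29) and Olig1 against VNO (4.62 ± 0.09, adjusted p = 2.96e-28), while Tcf7l2, an effector of Wnt signalling, was lowest in both (-0.85 and -1.47). Of 8 precursor genes, 5 were higher and 3 lower in OB against each sensory tissue. Lhfpl3 led with 4.79 ± 0.06 against MOE (adjusted p = 2.3e-32) and 4.83 ± 0.06 against VNO (adjusted p = 1.77e-32). Pdgfra, the receptor of precursors and also of fibroblasts, was lowest against MOE (-0.33 ± 0.08, adjusted p = 0.000266), and Cspg4, made by precursors and pericytes, against VNO (-1.97 ± 0.06, adjusted p = 1.22e-22). Between VNO and MOE, 3 of the transcription factors were higher and 3 lower in VNO, from Sox10 (0.65 ± 0.06, adjusted p = 6.58e-11) to Olig1 (-2.78 ± 0.09, adjusted p = 4.88e-22). Of the precursor genes, 6 were higher in VNO, led by Cspg4 (1.75 ± 0.06, adjusted p = 8.37e-21), and 0 were lower, with Lhfpl3 at -0.04 (adjusted p = 0.595).

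Markers of other cells that share these genes differed between the tissues as well, and their part in the levels above was not tested. Of 12 genes listed as peripheral myelin and Schwann cell genes, 10 were tested, and 7 were higher and 1 lower in VNO than in MOE. The highest of them was Mpzl2 (1.39 ± 0.08, adjusted p = 1.97e-16). Mpzl2 was lower in OB than in VNO, as all 8 epithelial genes were, and which cells made it was not tested. Against MOE, OB was higher in 6 and lower in 4 of the 10, and against VNO higher in 4 and lower in 6, with Drp2 highest in both (2.77 and 2.11) and Mpzl2 (-2.002) lowest against VNO. Their summed level was 14.6 to 18.0 FPKM in VNO, against 6.03 to 8.88 FPKM in MOE and 13.1 to 15.9 FPKM for OB. All 8 epithelial genes were lower in OB than in either sensory tissue, with summed levels of 231 to 440 FPKM in MOE, 275 to 372 in VNO and at most 1.20 in OB. Of 9 genes of forebrain neurons outside the bulb, 6 were higher and 3 lower in OB than in MOE, with a sum of at most 34.3 FPKM in OB. The ensheathing glia and astrocyte list, which is shared with bulb astrocytes, was higher in OB than in MOE for 9 of 10 genes.

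The windows of 250 bases before the annotated start are shown for the genes at the ends of this range, Mobp and Mog, which were at or near 0 outside OB, and Mal and Cldn11, which differed least, and for Cnp, which lies between them. RefSeq sequences of build GRCm38.p6 were matched by symbol for 6 of the 7 members, with 8 windows in all, and Mbp was not matched. Capitals mark matches, on either strand, to the SOX-type core ACAAAG, the MYRF-type core CTGGCAC, the E-box CAGCTG, the TATA box letters TATAAA or the GC box GGGCGG. These motifs did not overlap one another in the windows shown.
Mobp, chr9:120149492-120149741, plus strand: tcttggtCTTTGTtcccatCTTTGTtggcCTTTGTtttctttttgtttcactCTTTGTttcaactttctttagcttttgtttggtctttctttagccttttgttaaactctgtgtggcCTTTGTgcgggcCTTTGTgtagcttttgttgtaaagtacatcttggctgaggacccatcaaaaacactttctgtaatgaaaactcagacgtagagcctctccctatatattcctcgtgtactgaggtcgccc
Mog, chr17:37023399-37023648, minus strand: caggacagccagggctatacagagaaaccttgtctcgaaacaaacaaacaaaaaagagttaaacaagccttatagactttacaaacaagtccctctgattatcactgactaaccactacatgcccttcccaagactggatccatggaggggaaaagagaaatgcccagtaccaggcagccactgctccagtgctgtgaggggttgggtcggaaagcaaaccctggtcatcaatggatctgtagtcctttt
Cnp, chr11:100574689-100574938, plus strand: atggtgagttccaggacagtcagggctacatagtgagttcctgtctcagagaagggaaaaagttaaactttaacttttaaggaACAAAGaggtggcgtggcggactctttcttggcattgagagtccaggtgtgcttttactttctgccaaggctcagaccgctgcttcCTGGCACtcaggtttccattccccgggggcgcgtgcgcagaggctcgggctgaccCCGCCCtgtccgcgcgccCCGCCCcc
Mal, chr2:127656696-127656945, minus strand: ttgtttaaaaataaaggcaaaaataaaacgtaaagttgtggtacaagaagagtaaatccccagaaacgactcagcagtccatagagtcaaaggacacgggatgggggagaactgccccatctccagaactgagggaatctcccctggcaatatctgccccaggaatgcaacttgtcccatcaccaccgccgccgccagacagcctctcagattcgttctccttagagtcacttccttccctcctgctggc
Cldn11, chr3:31149670-31149919, plus strand: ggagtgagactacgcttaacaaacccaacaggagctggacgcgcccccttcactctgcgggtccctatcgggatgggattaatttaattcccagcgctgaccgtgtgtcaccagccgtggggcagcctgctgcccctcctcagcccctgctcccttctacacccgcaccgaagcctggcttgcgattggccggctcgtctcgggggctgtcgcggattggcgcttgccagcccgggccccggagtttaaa

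The Mobp window held 6 matches to the SOX-type core, all as its reverse complement, between 243 and 120 bases before the start. Over the 32851 windows of the RefSeq table, 16.5% held at least 1 such match, and 2 windows held 5 or more, a number chosen after the Mobp count was seen. The Cnp window held 1 match to the SOX-type core, 1 to the MYRF-type core at 81 bases before the start, and 2 to the GC box. Cnp had 1 window, and which of the 2 Cnp starts given below it precedes was not determined. Of the 3 Mag windows, 2 overlapping ones shared 1 match to the SOX-type core and 1 to the MYRF-type core. The MYRF-type core was found in 4.19%, the E-box in 13.0%, the TATA box letters in 12.4% and the GC box in 32.7% of all windows. The windows of Mog, Mal and Cldn11 held none of the 5 motifs, which says only that these letters are not in these windows. The GC content of the windows ran from 40.8% in Mobp to 63.6% in Cldn11 among those shown, against a median of 52.4% over all windows.

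In the Mobp gene, 2 of 3 entries were above 0 in all 12 OB libraries, and they differ in their ends. The shorter, which ends at position 120078494 on chromosome 9 (build mm9, as the loci are given), took 43.3% ± 4.13 of Mobp FPKM (SD, n = 12), and the longer, ending at 120085209, took 56.7% ± 4.13. In the Cnp gene, 2 entries share their end at 100443053 on chromosome 11 and differ in their starts, at 100436253 and 100437205. The later start took 36.4% ± 4.90 of Cnp FPKM in OB (SD, n = 12), from 25.6% to 44.4%, and was above 0 in all 12 libraries. In MOE and VNO it was above 0 in 1 of 12 libraries each, at 9.02% and 10.7%. The mean share in OB exceeded that in MOE by 35.6 percentage points and that in VNO by 35.5, a comparison chosen after the data were seen and given without a test, since a start at 0 in 11 of 12 libraries may lie under what these values can list. Mag was not divided by entry, since its 7 entries varied widely between libraries, and the only one above 0 in all 12 OB libraries ranged from 2.28 to 14.5 FPKM.

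Mbp was listed as 8 entries with separate start regions on the plus strand of its chromosome in mm9. An upstream start, that of the Golli transcripts, opens 2 entries, and downstream starts, those of classic myelin basic protein, open the other 6. In OB all of Mbp came from 2 of the 6 downstream entries, at 101 ± 10.6 and 49.3 ± 4.88 FPKM (SD, n = 12), and the upstream start was listed at 0 in 12 of 12 libraries. In MOE the upstream start was above 0 in 12 of 12 libraries, between 1.17 and 3.73 FPKM, and took 73.3% ± 17.5 of Mbp FPKM. In VNO it lay between 2.96 and 5.29 FPKM and took 83.6% ± 17.3. The downstream starts reached at most 1.76 FPKM in MOE, where they were at 0 in 3 libraries, and at most 2.32 FPKM in VNO, where they were at 0 in 6. Most Mbp of the sensory tissues was therefore assigned to another start than in OB, and the tissue differences of Mbp given above are sums over both.

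A listed 0 of a minor entry is no absence. Among 75383 minor entries beside a leading entry of at least 10 FPKM, 56519 were listed at 0 and 87 lay above 0 but under 5% of the leading entry. Golli transcripts at their mean MOE or VNO level would lie under 5% of the leading Mbp entry of OB, so that their level in OB could not be read from these values.

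**Figure D3:**
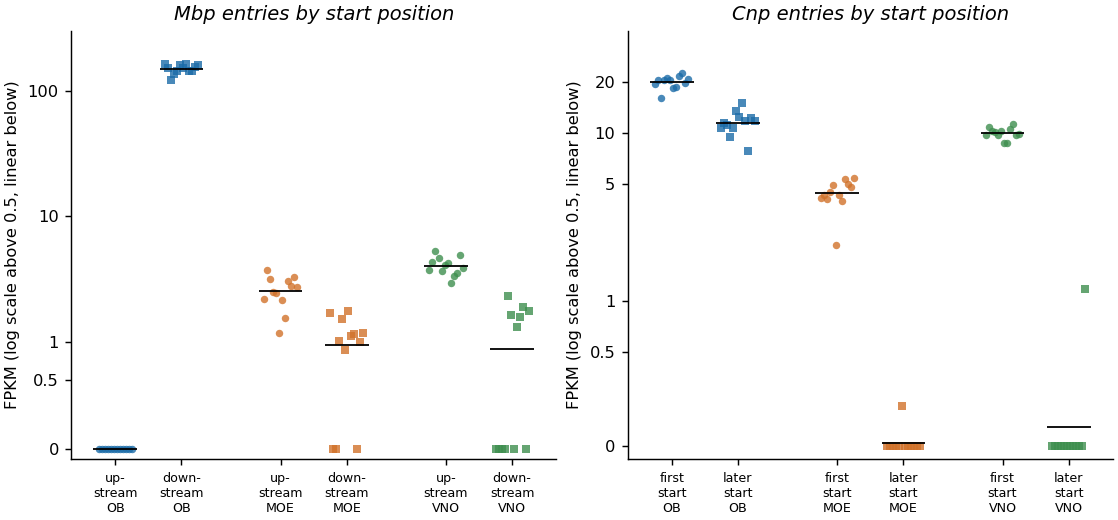
FPKM by start position of the transcript entries of Mbp (left) and Cnp (right) in each library, with the mean of 12 libraries as a bar, on axes that are logarithmic above 0.5 FPKM and linear below. OB Mbp lies wholly on the downstream starts, near 151 FPKM, and the later Cnp start is above 0 in all OB libraries and in 1 library each of MOE and VNO.

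The design also asked whether sex and housing changed expression within a tissue. The genes with a mean of at least 0.5 FPKM were tested, which left all 7 in OB, 5 in MOE (without Mog and Mobp) and 4 in VNO (without Mog, Mobp and Mag). In 12 comparisons and 64 tests, limma called 0 of these genes at an adjusted p under 0.05, and 2 had an unadjusted p under 0.05. With library weights 2 were called, Mog between the housings in OB and Mal for the interaction in MOE. The background was as low. In OB, the called share of all genes tested was 0.0390% for SF against SM, 0.0468% for CF against CM, 0.00781% for the interaction of sex and housing, and 0.00781% for the 2 housings. In MOE the shares were 0.0944%, 0.0436%, 0.0290% and 0.102% in the same order, and in VNO 0.0721%, 0.0433%, 0% and 0%. Of the genes on the other lists, 1 was called in any of these comparisons, Gad1, a marker of inhibitory bulb neurons, which was lower in SF than in SM of VNO (log2 -0.86 ± 0.13, adjusted p = 0.0298).

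In OB, log2 differences between SF and SM ran from -0.07 (Mog) to 0.17 (Mal), with 95% intervals that reached from -0.31 to 0.46. Between CF and CM they ran from -0.10 (Cnp) to -0.00 (Mog), with intervals from -0.36 to 0.25. The intervals therefore left room for changes of the size of those bounds. Mbp read 151, 166 and 144 FPKM in the 3 SF libraries and 145, 157 and 161 FPKM in the 3 SM libraries. It read 165, 154 and 122 FPKM in CF and 137, 145 and 162 FPKM in CM. The 4 groups overlapped throughout, and the lowest of the 12 was the third CF library.

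The smallest unadjusted p between the housings belonged to Mog, the surface protein. It read 2.79, 3.93 and 3.69 FPKM in SF and 3.92, 3.53 and 3.46 FPKM in SM, against 2.84, 3.05 and 3.10 FPKM in CF and 2.83, 2.93 and 3.25 FPKM in CM. The males did not overlap between housings, while the first SF library lay below all other OB libraries. The log2 difference of sex-separated from sex-combined mice was 0.21 ± 0.08 (limma, unadjusted p = 0.0205, adjusted p = 1), from 0.04 to 0.38 (95% interval). With library weights, its adjusted p was 0.0478, and 118 genes in place of 1 were then called. Over the alternatives its adjusted p ran from 0.0478 to 1. The other 6 genes differed by -0.03 to 0.07 between the housings in OB.

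In VNO, Mbp read 3.77, 4.32 and 5.29 FPKM in CF and 4.67, 5.98 and 5.74 FPKM in CM. The groups overlapped, and the log2 difference was -0.27 ± 0.12 (limma, unadjusted p = 0.0450, adjusted p = 1). Between SF and SM, Mbp read 4.24, 4.28 and 4.94 FPKM against 5.41, 4.91 and 5.62 FPKM, which overlapped as well (-0.22 ± 0.12, limma, adjusted p = 0.605). Cnp read 8.70, 8.65 and 10.6 FPKM in SF and 11.3, 9.71 and 11.03 FPKM in SM (-0.19 ± 0.09, limma, adjusted p = 0.569). In MOE the intervals were widest, with bounds for the interaction from -0.98 to 0.80. The interaction of Mal was 0.12 ± 0.32 (limma, adjusted p = 0.999), and 0.54 (adjusted p = 0.0208) with library weights, which called 2416 genes in place of 4. The third CM library read 2.03 FPKM of Mbp and 9.07 FPKM of Mal, when the other 2 CM libraries read 3.51 and 3.996 FPKM of Mbp and 17.5 and 18.5 FPKM of Mal.

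**Figure D4:**
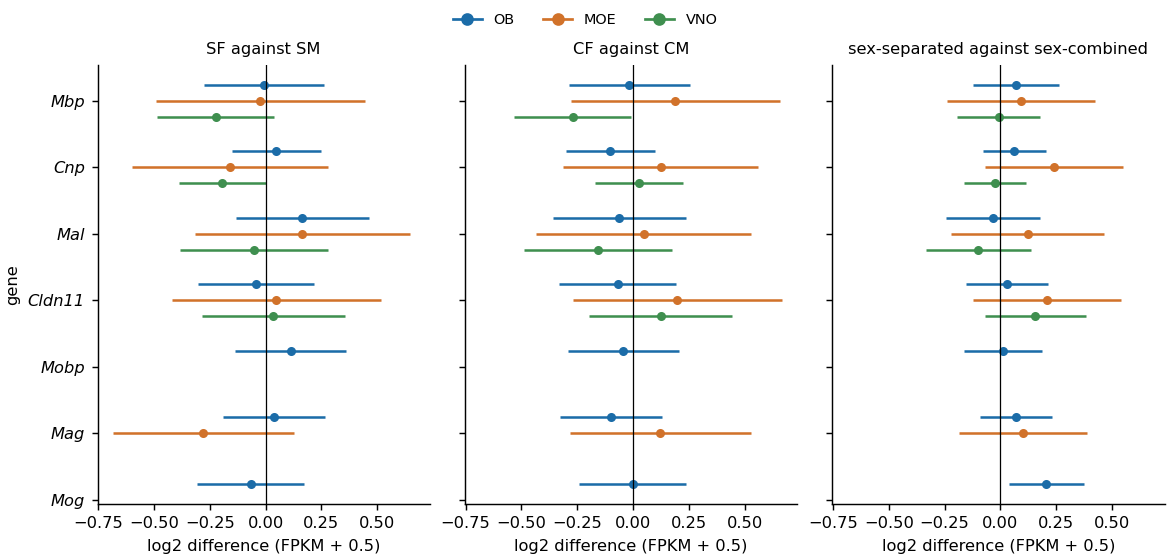
Log2 differences on the FPKM + 0.5 scale (points) with 95% intervals (lines) for SF against SM, CF against CM and sex-separated against sex-combined mice, by tissue colour. Genes under a mean of 0.5 FPKM in a tissue have no point, and only Mog in OB (housing) and Mbp in VNO (CF against CM) have intervals that do not reach 0.

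The 7 genes were also compared with one another across the 12 libraries of a tissue, on log2(FPKM + 0.5), with permutation tests of 100000 resamples adjusted over the 37 pairs tested in the 3 tissues. In OB all 21 pairs had a positive Pearson r, from 0.21 to 0.92 with a median of 0.63, and 10 passed the adjusted threshold. Spearman's rho had a median of 0.58, and over the 3 tissues it passed in 2 pairs, both in OB. The tightest pair was Mag and Cldn11 (r = 0.92, permutation p = 1e-05, the smallest these resamples can give, adjusted p = 0.00037, rho = 0.93, permutation p = 8e-05). It kept an r of 0.89 without the 2 libraries farthest from the median of Mag. Mobp and Mal followed (r = 0.86, permutation p = 0.00039, adjusted p = 0.00721, rho = 0.84, permutation p = 0.00125), with an r of 0.83 without the 2 farthest. Mog went least with the rest, at r = 0.32 with the mean of the other 6. Without the 2 farthest libraries, the median r of the 21 pairs was 0.43.

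The libraries share their scaling, and a positive correlation with the 7 genes was common. Over the 12801 other genes tested in OB, the median r with the mean of the 7 genes was 0.48, with quartiles of 0.26 and 0.63. The 7 genes themselves, each against the mean of the others, had a median r of 0.79. The r of a pair and the r with a mean are unlike measures. After quantile normalization the median r of the 21 pairs was 0.27 and 1 pair passed. Without the third CF library 2 of 21 OB pairs passed, and without the second SF library 5 did. These were the libraries with the lowest and highest mean level of the 7 genes, at -0.20 and 0.21 log2 units from their average. In MOE, 5 of 10 pairs passed, with a median r of 0.77, and 0 passed without the third CM library. The median r of all other genes with the mean of the members was 0.77 in MOE, with quartiles of 0.58 and 0.86. On that measure the members, each against the mean of the others, had a median of 0.85. In VNO, 0 of 6 pairs passed, 0 had an unadjusted p under 0.05, and r ran from -0.12 to 0.49. The median r of all other genes with the mean of the members was 0.27 in VNO. That of the members, each against the mean of the others, was 0.19.

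**Figure D5:**
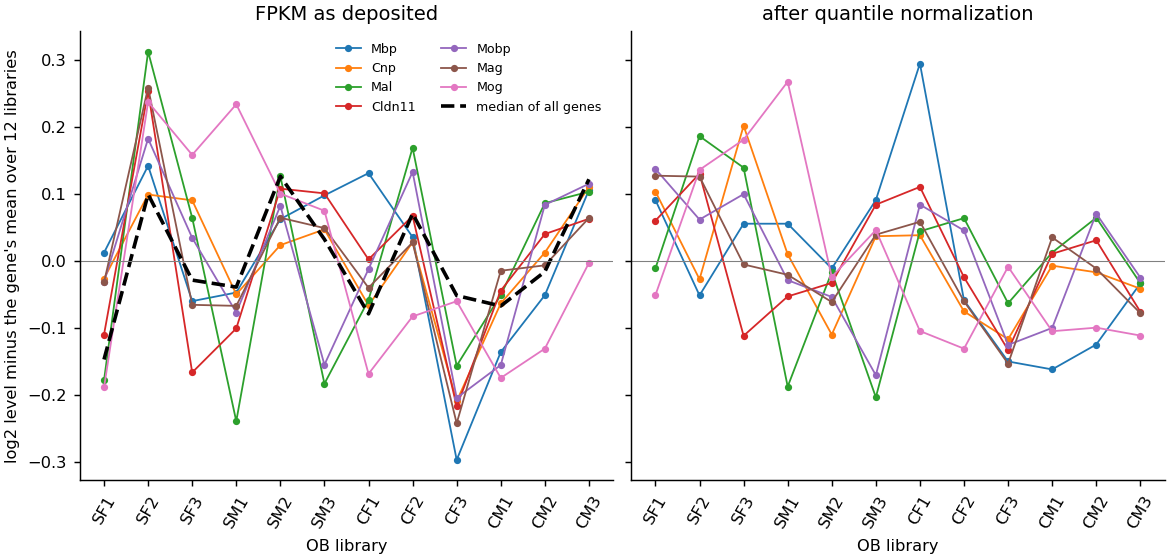
Log2 level of each gene minus its mean in the 12 OB libraries, from FPKM as deposited (left) and after quantile normalization (right), with the median of all genes as a dashed line on the left. On the left most of the 7 genes lie on the same side of 0 as the median gene in most libraries, with exceptions such as Mog in the first SM library (0.23, median gene -0.04), and on the right the median r of the 21 pairs falls from 0.63 to 0.27.

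Among 11461 other genes of at least 1 FPKM in OB, the 10 most like the mean of the 7 had r from 0.91 to 0.94 over 12 libraries. They were Fkbp9 (r = 0.94), Amz2, Eml1, Nek4, Trf, Mecr, Hsd17b4, Bhlhe22, Mmadhc and Syt13. Of these, Trf (transferrin, made by oligodendrocytes; 45.2 ± 4.35 FPKM, SD, n = 12) is also on the list of other mature oligodendrocyte genes. The median r of the 20 genes on that list was 0.65, between that of 7 chemosensory neuron genes (0.68) and those of 10 ensheathing glia and astrocyte genes (0.61) and 8 microglia genes (0.59). The other lists with tested genes had medians from 0.15 (forebrain neurons outside the bulb) to 0.53 (lineage transcription factors), and 12 bulb neuron genes had 0.40.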

How the data were processed

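FPKM values were used as deposited. The authors aligned read pairs to the mouse genome build mm9 and computed FPKM per RefSeq transcript and locus, with TopHat2 2.1.0 and Cufflinks 2.2.1.0 by the submitters' processing notes. Entries were assigned to symbols by RefSeq accession (99.7% of entries) and summed. Genes with an entry not marked as successful were left out (2 in OB, 6 in MOE and 2 in VNO, none on a list). Fragments were estimated by squaring FPKM over its standard error (the deposited limits lie 2 standard errors away), and a fold was given only where every library of both tissues had at least 3. Positions were written 1-based. GRCm38 tables served for names and promoter windows.

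Groups were compared in R 4.3.3 with limma 3.58.1 (eBayes with a trend) on log2(FPKM + 0.5), which understates changes of low genes, in 1 fit per tissue for genes with a mean of at least 0.5 FPKM and in 1 fit over 36 libraries for tissues. The Benjamini-Hochberg adjustment covered all genes of a comparison. The fit was also run on simulated data with independent errors, unlike these libraries, whose tissues share animals, and no statement here rests on that run. Of 63 planned pairs for correlation, 26 held a gene under the filter and were left out. Python 3.11.15, numpy 2.4.6, pandas 2.3.3, scipy 1.17.1 and matplotlib 3.10.9 were used.

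The members, the lists and the rules were chosen with earlier results of these data known. Named were all members, per list and tissue comparison the genes with the lowest and highest difference (printed here for the lineage and peripheral myelin lists), list genes called within a tissue, and the 10 genes most like the members; the other genes named were chosen after their values were seen. The values of 2 list genes that this rule names are not reported here; both stay in the counts of their lists. Alternatives were pseudocounts of 0.1 and 1, no filter, quantile and upper quartile scaling, library weights, a replicate block, the leading entry of each gene within each tissue alone, fits on fewer libraries, and each library left out. Same-numbered samples deviated with correlations from -0.306 to 0.273, and the numbers were not taken as pairs. These correlations cannot show whether same-numbered pools of different tissues held the same mice. The tissue fit took the libraries as independent, though the tissues came from the same animals, and the replicate block was its only alternative with pairs.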

Additional observations from a re-analysis of the deposited data

How the results depend on the processing

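Every member stayed higher in OB than in MOE and than in VNO under all alternatives, and called so, with 2 to 4 members at a log2 difference of at least 3 from MOE and 3 to 4 from VNO. The leading entry was chosen within each tissue, so that this alternative can compare different entries. For Mbp it was a downstream entry in OB and an upstream entry in MOE and VNO. Library weights (arrayWeights) called 1 member in each of 2 comparisons where none was called otherwise, Mog between the housings in OB (log2 0.23, adjusted p = 0.0478) and Mal for the interaction in MOE (log2 0.54, adjusted p = 0.0208, with 2416 of 13771 genes called in place of 4). They also raised the genes called between SF and SM to 1403 in OB and 1778 in MOE, from 5 and 13, between CF and CM in OB to 681 from 6, and for the interaction in OB to 409 from 1. The cause was not tested. Between VNO and MOE, Mobp, not called, ran from -0.0414 to 0.0034 when 1 library was left out, the latter without the first MOE CF library. Pairs of members past the threshold numbered 15 of 37. After quantile normalization 1 passed (OB 1, MOE 0). As deviations from the group means, 14 passed in OB, 6 in MOE and 1 in VNO. Leaving out 1 library gave 4 to 19 pairs (OB 2 to 13, MOE 0 to 6, VNO 0 to 1). The replicate block changed no call of a member, and Mog between the housings stayed at 0.21. The Cnp share differed by 34.9 to 36.6 percentage points from MOE and by 34.7 to 36.5 from VNO without any 1 library. Depth limits Mog and Mobp outside OB, which rest on a few fragments.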
